A study of Mus musculus with 6 samples.

Results

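Ribosomal protein pseudogenes were taken as every row of the gene count table whose symbol is a ribosomal protein gene name (Rpl or Rps and its suffix) followed by -ps and, in all but 5 of them, a number. The rule found 321 of the 49997 rows, and each was compared with its parent gene, the symbol before -ps. The 321 pseudogenes named 65 parents, of which 64 had a row of their own. The 6 libraries were bulk RNA-seq of long-term haematopoietic stem cells (LT-HSCs) sorted by flow cytometry from bone marrow of C57BL/6J mice aged 4 months. In 3 of them the sorted cells carried high levels of Asrij, and in the other 3 low levels. Asrij is the product of Ociad1, an endosomal protein studied in blood stem cell quiescence, and the groups differed in no other labelled factor. The labels give the genotype only as C57BL/6J and name no reporter allele or antibody, while the name of the deposited table carries the abbreviation ArjKI, which they do not explain. They also do not say how Asrij was read in the sort, nor whether the replicates came from separate or pooled mice, so p-values measure only the spread between these libraries, which may be technical.

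Ribosomal protein genes encode the proteins of the small (Rps) and large (Rpl) ribosomal subunit. They are among the most strongly transcribed genes of a cell, and mammalian genomes carry many copies of them. Most of these copies are processed pseudogenes, made by reverse transcription of a spliced mRNA and insertion elsewhere in the genome, so that they lack introns and usually a promoter. Because a copy can be nearly identical to the mRNA of its parent, a short read from one can align equally well to the other, and how the aligner and counter treat such reads sets the count of each.

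Library totals were 62732782 to 72855125 counts in Asrij high cells and 24707012 to 46240743 counts in Asrij low cells. Ociad1 had 86.9, 77.6 and 76.3 CPM (counts scaled to library size with TMM factors) in Asrij high cells and 57.9, 50.3 and 46.7 CPM in Asrij low cells. The log2 fold change, Asrij high over Asrij low throughout, was 0.64 ± 0.16 (SE, edgeR quasi-likelihood test, adjusted p = 0.0115). The summed levels of most cell type marker lists did not overlap between the groups, while those of the T and NK cell list did. All 8 LT-HSC markers were called lower in Asrij high cells, with a summed level of 412 to 670 CPM there and 1227 to 1435 CPM in Asrij low cells. The 6 granulocyte-monocyte markers summed to 3545 to 5002 CPM in Asrij high cells, against 525 to 2098 CPM in Asrij low cells, and 3 of them were called higher. The 6 erythroid markers summed to 1944 to 3632 CPM in Asrij high cells and 5919 to 42951 CPM in Asrij low cells, with 2 called higher and 3 lower. The 6 stromal markers summed to 15.4 to 32.4 CPM in Asrij high cells against 126 to 879 CPM in Asrij low cells, the 6 B and plasma cell markers to 12.4 to 15.5 against 50.1 to 190 CPM, and the 6 T and NK cell markers to 28.4 to 64.6 against 25.8 to 42.1 CPM. All 6 stromal, 5 B and plasma cell and 1 T and NK cell markers were called lower, and 0 markers of these lists were called higher. No marker of any list was at 0 in every library, and Cd3e and Trac stayed under 1 CPM in each. Their part in the results was not tested, and in bulk RNA fewer cells of a type and less RNA per cell cannot be told apart. Replicate 3 of each group stood apart from the other libraries in the Rps18 pseudogenes, as described with that family.

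The summed level of the pseudogenes was higher in each Asrij high library than in any Asrij low library. It was 8701, 7183 and 7800 CPM in the 3 Asrij high libraries and 4612, 5591 and 3707 CPM in the 3 Asrij low libraries. The means, 7895 ± 764 CPM in Asrij high cells and 4637 ± 942 CPM in Asrij low cells (SD, n = 3 each), stood 1.72-fold apart. The exact two-sided permutation test gave p = 0.1, which is the smallest that 3 against 3 libraries allow. As a share of all counts, the pseudogenes took 0.691% to 0.755% in Asrij high libraries and 0.389% to 0.601% in Asrij low libraries.

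Of the 321 pseudogenes, 60 had no count in any library, 65 had too few counts to be tested, and 196 were tested with edgeR among 21445 genes. At an adjusted p under 0.05, 54 of the 196 rose in Asrij high cells, 27.6%, against 21.7% of all tested genes. None fell, against 17.7% of all tested genes, and none was lower at an unadjusted p under 0.05 either, while DESeq2 and limma-voom also called 0. The log2 fold change was above 0 in 174 of the 196 and below 0 in 22. Its median was 0.71, against -0.02 over all tested genes, and the middle 50% of the pseudogenes lay between 0.36 and 1.05. In 90 of the 196 the lowest Asrij high library exceeded the highest Asrij low one on the CPM scale, which was so for 30.2% of all tested genes. The 54 that rose came from 25 of the 52 families with a tested member. The count was 20 of 196 (10.2%) without replicate 3 of both groups, where 2342 of all 22078 tested genes rose. It was 31 of 195 (15.9%) without Asrij high replicate 1, where 3135 of 22928 genes rose. When libraries were scaled by their totals alone it was 32 of 196 (16.3%), beside 3270 of 21445 genes. In each of these fits the share lay closer to that of all genes than 27.6% did to 21.7%. In some other fits it lay further away. Without Asrij low replicate 2, 76 of 202 (37.6%) rose, beside 5183 of 22866 genes. With limma-voom 69 of 196 (35.2%) rose, beside 5147 of 21445 genes, and with DESeq2 58 (29.6%), beside 4797. A pseudogene could pass the filter on low counts through its counts in 1 group alone, so the 196 are not a neutral sample of the 321. Nor are they all separate measurements. Of the 54 that rose, 9 are copies of Rps12 that are 99.2% to 100% identical to each other. In 8 pairs of pseudogenes of 1 parent the counts lay within 10% of each other in every library.

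Most parents rose too. Of the 64 parent genes, all tested, 38 rose and 0 fell. Over all tested genes, 21.7% rose and 17.7% fell. The parents had a median log2 fold change of 0.75 and a range from -0.06 to 2.27. The lowest was Rps4l, a paralogue of Rps4x, and 63 of the 64 were above 0. Among the 80 cytosolic ribosomal protein genes listed, 79 were found and tested, 50 rose and 0 fell, with a median of 0.81. The 17 of them without a named pseudogene in the table had a median of 0.88, and 13 rose. Of the 54 pseudogenes that rose, 45 had a parent that also rose, and in the other 9 the parent missed the threshold. Another 80 pseudogenes were not called although their parent rose.

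Set against their parents, the pseudogenes kept nearly the same share of counts in both groups. Summed over all families with a parent row, pseudogene counts were 19.5%, 18.9% and 20.6% of parent counts in Asrij high libraries and 19.3%, 19.1% and 21.5% in Asrij low libraries. The 2 groups overlapped, with means of 19.7% ± 0.892 in Asrij high and 19.99% ± 1.31 in Asrij low cells (SD, n = 3 each), and the exact two-sided permutation test gave p = 0.7. Pair by pair, the ratio to the parent did not overlap between the groups in 32 of 196 pseudogenes, 11 higher and 21 lower in Asrij high cells. The same was so for 20.0% of the 210 tested pairs of other named pseudogenes and their parents, so the count stood no higher than that background.

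The 306 tested pseudogenes of other genes, again by the -ps suffix, had a median log2 fold change of 0.38. Of these, 63 (20.6%) rose and 21 (6.86%) fell, and whether the 2 lists differ was not tested.

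**Figure D1:**
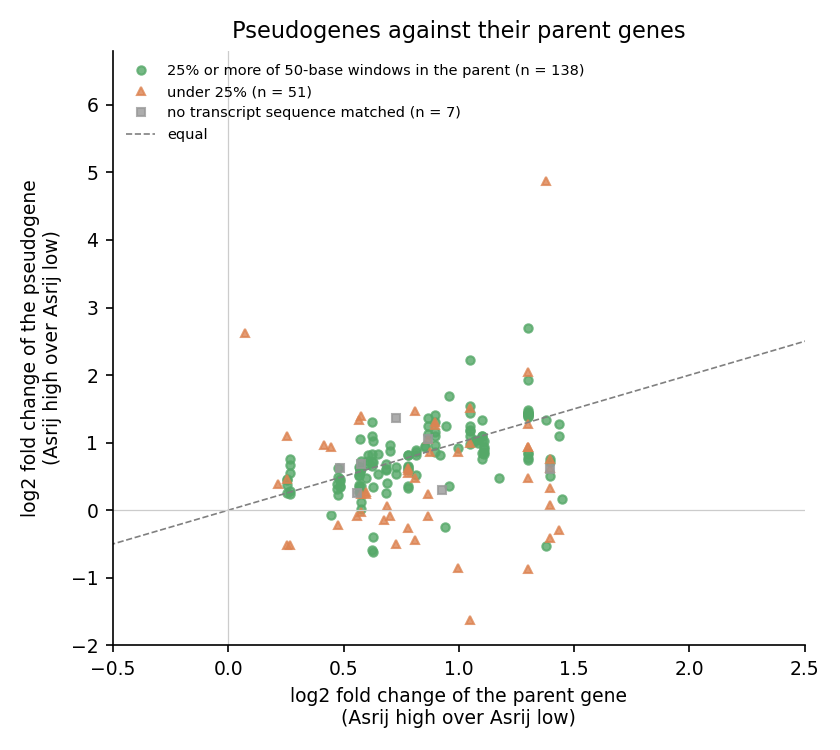
Log2 fold change (Asrij high over Asrij low) of each of the 196 tested pseudogenes, y axis, against that of its parent gene, x axis; symbols mark the share of 50-base windows of the pseudogene transcript that also occur in a parent transcript, and the dashed line marks equal values. Pseudogenes that share 25% or more of their windows (138) lie mostly along the line, and those that share fewer (51) scatter more widely, up to 4.87 for Rpl27-ps2.

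Counts varied with the sequence identity to the parent. For 303 pseudogenes a GENCODE transcript was found, and 297 could be aligned to their parent over at least 100 bases, with a median identity of 97.1% and a lowest of 81.7%. The 111 pseudogenes of at least 98% identity had a median of 7644 counts over the 6 libraries, and each of them had counts. The 85 between 95% and 98% had a median of 215 counts, the 68 between 90% and 95% a median of 2, and of the 33 below 90%, 22 had no count at all. Per kb of transcript the median level was 49.3 CPM in the first class and 1.60 CPM in the second. Across the 297 pseudogenes, identity and the level per kb as a share of the parent had a Spearman rho of 0.87, given as a description, since members of a family share their parent and their reads.

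Fold changes lay nearest to the parent where most windows were shared, though not in a steady order. The median distance between the log2 fold change of a pseudogene and that of its parent was 0.12 for the 43 tested pseudogenes with at least 75% of their 50-base windows in a parent transcript. It was 0.29 for the 42 with 50% to 75% of their windows there and 0.16 for the 53 with 25% to 50%. It was 0.64 for the 51 tested pseudogenes with under 25%, whose median log2 fold change was 0.47. Of these 51, 3 rose, against 21.7% of all tested genes. Over all 196 pairs, 99 lay within 0.25 of the parent, and 20 lay more than 1 away, 4 above and 16 below it. The 4 above were Rpl27-ps2, Rpl22-ps1, Rpl31-ps16 and Rps12-ps5. Apart from Rpl27-ps2 and Rps26-ps1, none of the 20 had more than 140 counts in a library. Where a pseudogene shares windows with its parent, its count and fold change are uncertain as values of that locus, because the treatment of multiply mapped reads is not stated.

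**Figure D2:**
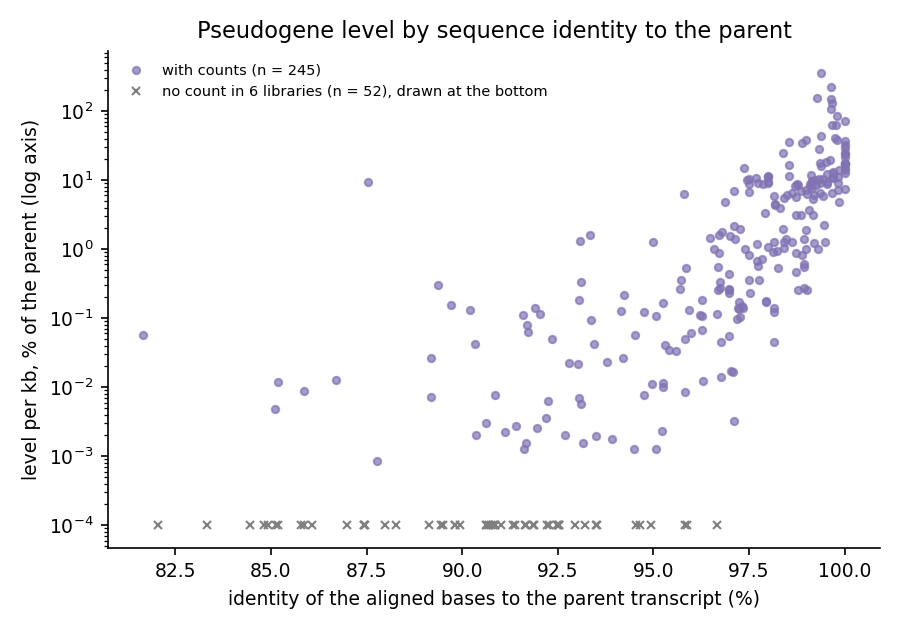
Level per kb of each pseudogene as a percent of the level per kb of its parent (y axis, log scale, mean over the 6 libraries) against the identity of its aligned bases to the parent transcript (x axis, percent). The 245 pseudogenes with counts climb towards 100% identity, and the 52 with no count, drawn as crosses at the bottom, lie at or below 96.7% identity.

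Among the copies of large subunit genes, those of Rpl15 had the highest levels. Rpl15-ps3 (chr9:22185556-22186258, GRCm38), whose transcript is identical to Rpl15 over all its 615 bases, had 537, 425 and 486 CPM in Asrij high cells and 241, 321 and 238 CPM in Asrij low cells. It rose by 0.85 ± 0.18 on the log2 scale (SE, edgeR adjusted p = 0.00598), and its parent Rpl15, which encodes a protein of the large subunit, by 0.82 (adjusted p = 0.0233). Rpl15-ps6 (chr15:52477566-52478393), with 2 mismatches to the parent, averaged 423 ± 51.5 CPM in Asrij high cells, against 229 ± 43.3 CPM in Asrij low cells (SD, n = 3 each) and rose by 0.89 ± 0.19 (edgeR adjusted p = 0.00558). The groups did not overlap in either copy, whereas the count ratio of each to Rpl15 did overlap between the groups.

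Rpl7a-ps11 on the X chromosome (chrX:166854190-166855053) had 517, 282 and 399 CPM in Asrij high cells and 194, 277 and 156 CPM in Asrij low cells. The lowest Asrij high library stood just above the highest Asrij low library, and the rise of 0.94 ± 0.27 (edgeR adjusted p = 0.0217) was not called in 6 of 15 alternative analyses. Rpl14-ps1 (chr7:45324958-45325651), annotated as a transcribed pseudogene, averaged 281 ± 36.7 CPM in Asrij high cells, against 142 ± 45.8 CPM in Asrij low cells and rose by 0.99 ± 0.23 (edgeR adjusted p = 0.00900). It lies in an intron of Trpm4, an ion channel gene on the opposite strand, whose own log2 fold change was -1.92 (adjusted p = 0.0114), while the parent Rpl14 rose by 1.08. Rpl5-ps1 (chr1:14865018-14866019), a copy of the gene for the 5S rRNA binding protein Rpl5, averaged 236 ± 28.4 CPM in Asrij high cells, against 163 ± 47.3 CPM in Asrij low cells, and its log2 fold change of 0.53 missed the threshold (edgeR adjusted p = 0.0817).

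The 10 highest pseudogenes included 4 copies of small subunit genes, of which Rps27a-ps3 rose most. This copy of Rps27a, whose product is a fusion of ubiquitin and a ribosomal protein, had 295, 198 and 258 CPM in Asrij high cells and 72.9 to 147 CPM in Asrij low cells, a log2 change of 1.28 ± 0.27 (edgeR adjusted p = 0.00547) against 1.44 for the parent. Rps10-ps2 averaged 165 ± 39.2 CPM in Asrij high cells, against 107 ± 15.4 CPM in Asrij low cells and rose by 0.63 ± 0.21 (edgeR adjusted p = 0.0381), with overlapping groups and a call that was lost in 8 of 15 alternatives. Rps6-ps4, identical to the mRNA of the mTOR pathway target Rps6 over the whole transcript, averaged 287 ± 20.96 CPM in Asrij high cells, against 204 ± 67.6 CPM in Asrij low cells, and its log2 change was 0.49 beside 0.47 for Rps6, neither past the threshold (edgeR adjusted p = 0.126 and 0.118). Without Asrij low replicate 2 Rps6-ps4 was at 0.79 and Rpl5-ps1 at 0.80, and each passed (edgeR adjusted p = 0.0175 and 0.0155). In all, 6 of the 10 highest pseudogenes rose, beside 21.7% of all tested genes, and the 10 held 36.6% of the counts of all 321.

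**Figure D3:**
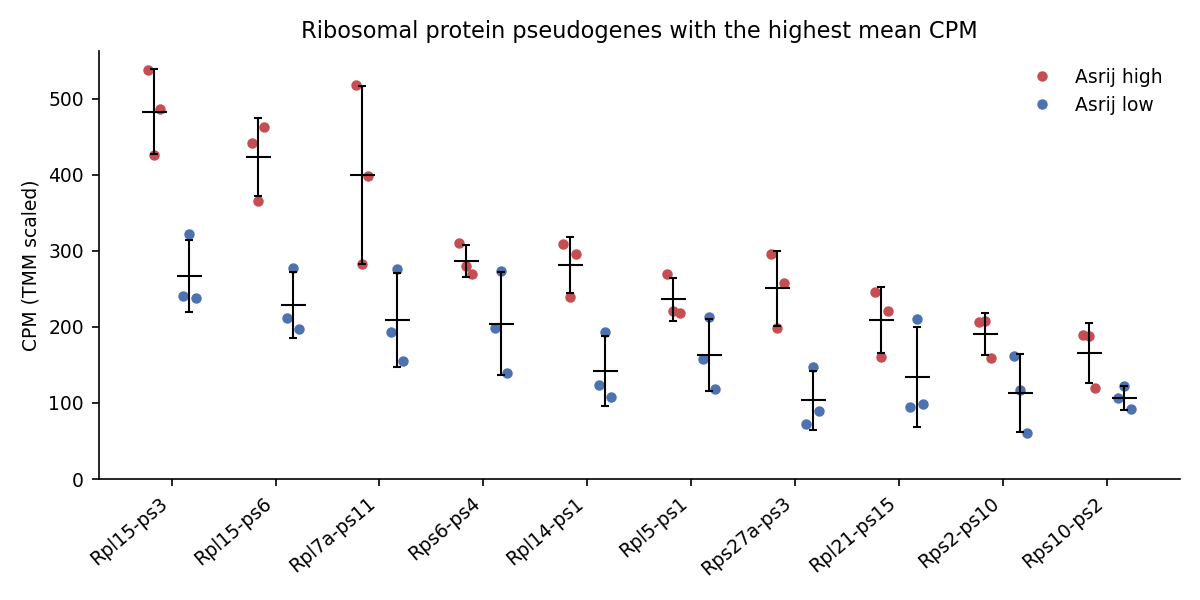
CPM (y axis, linear) of the 10 pseudogenes with the highest mean level, Asrij high libraries to the left of Asrij low libraries for each; points are libraries, bars the mean and SD (n = 3). Rpl15-ps3 spans 425 to 537 CPM in Asrij high cells, against 238 to 321 CPM in Asrij low cells, and the Rps6-ps4 groups overlap.

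In 5 families the pseudogenes together had on average more counts than the parent in both groups. The 11 pseudogenes of Rpl17, a gene on chromosome 18, summed to 5.97 ± 1.70 times the Rpl17 counts in Asrij high and 6.00 ± 0.932 times in Asrij low cells. The 15 of Rpl21 summed to 2.32 ± 0.416 times the parent in Asrij high and 2.51 ± 0.543 times in Asrij low cells. The other 3 families were those of Rps12, Rpl15 and Rps27a, and the groups overlapped in each of the 5.

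Singly, 5 pseudogenes exceeded their parent. Rpl21-ps15 (chrX:151215134-151215688) had 246, 160 and 221 CPM in Asrij high cells and 94.1, 210 and 98.2 CPM in Asrij low cells. Per kb of annotated transcript, 483 bases against 899 in Rpl21, its mean level was 3.53 times that of Rpl21. Its log2 fold change of 0.64 ± 0.31 was not called (edgeR adjusted p = 0.134), while Rpl21 itself rose by 0.78 (adjusted p = 0.0304). Without Asrij low replicate 2, the highest library of its group, Rpl21-ps15 was at 1.15 and passed (edgeR adjusted p = 0.00566). It lies in an intron of the kinase gene Wnk3, on the opposite strand. Rpl17-ps3, -ps8, -ps9 and -ps10 stood per kb at 2.26, 1.30, 1.51 and 1.53 times the level of Rpl17. None of the 4 passed the threshold, with log2 fold changes between 0.26 for Rpl17-ps10 and 0.64 for Rpl17-ps3, and neither did Rpl17, at 0.57. Without Asrij low replicate 2, Rpl17-ps3, -ps8 and -ps9 passed, at 0.94, 0.72 and 0.79 (edgeR adjusted p = 0.0100, 0.0474 and 0.0247). Rpl17-ps3 had 196, 160 and 139 CPM in Asrij high cells and 78.2, 141 and 97.5 CPM in Asrij low cells, where replicate 2 of the Asrij low group reached the Asrij high range.

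**Figure D4:**
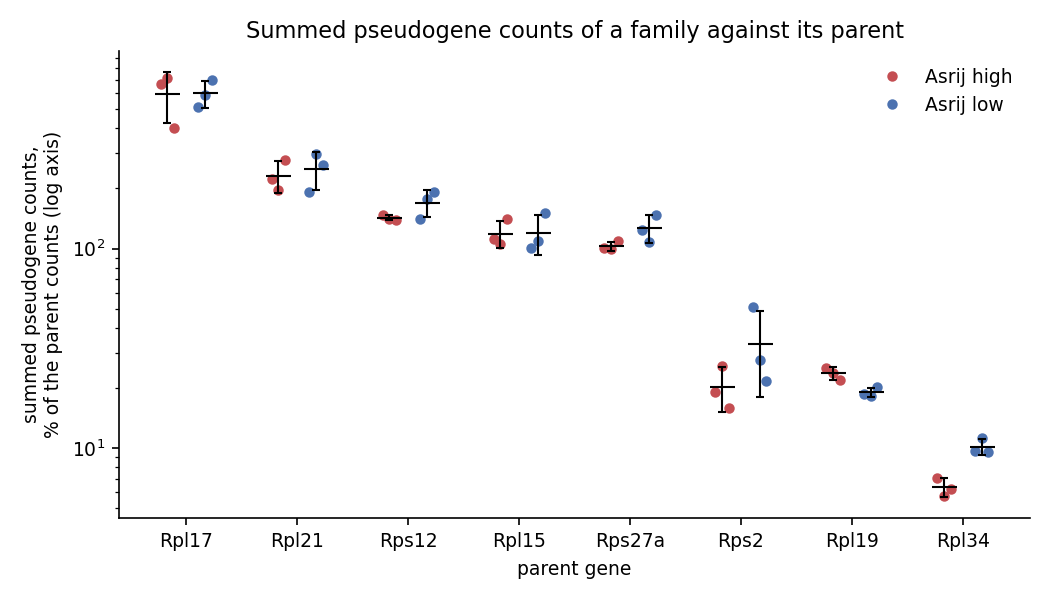
Summed counts of the pseudogenes of 8 families as a percent of the counts of the parent gene (y axis, log scale), Asrij high to the left of Asrij low; points are libraries, bars the mean and SD (n = 3). The Rpl17, Rpl21, Rps12 and Rpl15 families lie above 100% in all libraries, and only the Rpl19 and Rpl34 groups do not overlap among the 8.

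Rpl27-ps2 had the largest rise of all called pseudogenes. It had 221, 418 and 316 counts in the 3 Asrij high libraries and 0, 16 and 0 counts in the 3 Asrij low libraries. On the CPM scale this was 4.06, 6.57 and 4.79 in Asrij high cells and 0, 0.55 and 0 in Asrij low cells. The pseudogene passed the filter on low counts through its Asrij high counts, so its call is given as a description. The fitted log2 fold change of 4.87 ± 1.26 (edgeR adjusted p = 0.0148, and 0.0667 with no filter) rests on these few counts. It ranged from 4.21 to 11.09 over 15 alternatives and missed the threshold in 3 of them (no filter on low counts, without Asrij high replicate 1, and without replicate 3 of both groups), with adjusted p-values from 0.00136 to 0.0684. A count of 0 in an Asrij low library was given a floor of 3 counts, which would be 0.0431% and 0.0842% of the Rpl27 counts of replicates 1 and 3. This floor takes counts as single events, although 71.9% of the low pseudogene counts were even, so it may be too low. In Asrij high cells the pseudogene took 0.917%, 1.70% and 1.17% of the Rpl27 counts.

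Rpl27, which encodes a large subunit protein, rose by 1.38 ± 0.21 (edgeR adjusted p = 0.00138). Its 3 pseudogenes had unequal fold changes, which were not tested against that of Rpl27. Rpl27-ps3, identical to Rpl27 over 411 bases, averaged 48.2 ± 4.09 CPM in Asrij high cells, against 19.2 ± 3.78 CPM in Asrij low cells and rose by 1.33 ± 0.21 (edgeR adjusted p = 0.00141). Rpl27-ps1, with 5 mismatches, stayed under 1 CPM in every library, with a log2 fold change of -0.53 (edgeR adjusted p = 0.670). Rpl27-ps2 lies at chr11:101939459-101939943 on the plus strand of GRCm38 and overlaps no other RefSeq gene. Of the 6 RefSeq genes within 50 kb only Dusp3, a phosphatase gene, had enough counts to be tested, and it fell by 1.21 on the log2 scale (edgeR adjusted p = 0.0356). Its transcript is 96.5% identical to Rpl27 over 399 aligned bases, with 14 mismatches and 12 gap bases, and 19.4% of its 50-base windows occur in Rpl27. The first 133 bases, in GENCODE vM21, are shown because they hold 6 of these mismatches, written as capitals. All 12 gap bases, which are bases of Rpl27 missing from the copy, also fall inside this stretch and are not marked.
Rpl27-ps2: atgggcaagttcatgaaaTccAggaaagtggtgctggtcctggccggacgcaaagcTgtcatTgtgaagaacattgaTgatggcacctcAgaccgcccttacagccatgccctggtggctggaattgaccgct

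Other pseudogenes of the large subunit had fold changes at smaller distances from their parents, and are named here after their values were seen. Whether they differ from their parents was not tested. Rpl19-ps1 had 64.3, 46.4 and 48.2 CPM in Asrij high cells and 22.3, 26.98 and 17.99 CPM in Asrij low cells, a rise of 1.24 ± 0.22 (edgeR adjusted p = 0.00262). Rpl19-ps6 rose by 1.37 ± 0.24 (edgeR adjusted p = 0.00224), and both held their calls in all 15 alternatives. Rpl19, their parent, rose by 0.87, and the summed counts of its 12 pseudogenes were 0.253, 0.238 and 0.219 times its own in Asrij high libraries, above the 0.187, 0.183 and 0.202 times of the Asrij low libraries. Rpl34-ps1, which RefSeq annotates as protein coding, went the other way. It had 0.0698, 0.0572 and 0.0614 counts per Rpl34 count in Asrij high and 0.0966, 0.113 and 0.0948 in Asrij low libraries, and its own log2 fold change was 0.47 (edgeR adjusted p = 0.277) against 1.17 for Rpl34.

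In 9 pseudogenes the test called a rise that it did not call in the parent. They were Rpl17-ps4, Rpl30-ps1, Rpl30-ps8, Rpl30-ps9, Rpl36-ps3, Rpl5-ps2, Rps4x-ps, Rps6-ps3 and Rpsa-ps7, with log2 fold changes from 0.63 to 1.30. Each of these 9 overlapped between the groups in its ratio to the parent. Rpl30-ps8 changed most, at 20.1 to 31.3 CPM in Asrij high cells, against 5.31 to 13.7 CPM in Asrij low cells (log2 1.30, edgeR adjusted p = 0.0172), with Rpl30 at 0.62 (adjusted p = 0.0591). Rps4x-ps, with 58.3% of its windows in some other gene but 19.4% in Rps4x, averaged 8.24 ± 0.561 CPM in Asrij high cells, against 4.21 ± 0.360 CPM in Asrij low cells, a log2 change of 0.97 ± 0.30 (edgeR adjusted p = 0.0281) whose call was lost in 8 of 15 alternatives. The other called pseudogene with few windows in its parent beside Rpl27-ps2 and Rps4x-ps was Rpl36a-ps3, at 1.26 (edgeR adjusted p = 0.00234). It is 87.5% identical to Rpl36a, with none of its windows there but 81.6% in some other gene.

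Among the small subunit genes, Rps12 had the most pseudogenes that rose. Rps12 itself, whose product lies in the small subunit, had 495, 422 and 387 CPM in Asrij high cells and 215, 189 and 126 CPM in Asrij low cells, a rise of 1.30 ± 0.22 (edgeR adjusted p = 0.00204). Of its 23 pseudogenes, 22 were tested and 13 rose, where 21.7% of all tested genes did. The pseudogenes fell into groups by sequence, and the groups were not tested against each other.

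The first group was a block on the X chromosome. Rps12-ps6 and Rps12-ps11 to -ps18 lie between chrX:124349708-125987385 and are 99.2% to 100% identical to each other. Together they had 398, 269 and 276 CPM in Asrij high cells and 117, 143 and 89.1 CPM in Asrij low cells. All 9 rose, with log2 fold changes from 1.40 to 1.48 and edgeR adjusted p-values from 0.00207 to 0.00398, and 4 of the 5 largest fold changes among called pseudogenes were theirs (Rps12-ps15, -ps12, -ps6 and -ps13). They are not 9 independent measurements. Each has 36.6% of its 50-base windows in Rps12 and 85.7% to 100% in some other gene, so how reads were divided among the 9 is uncertain. Relative to Rps12 their summed counts were 80.4%, 63.8% and 71.3% in Asrij high and 54.4%, 75.6% and 70.7% in Asrij low libraries, which overlap.

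A second X-linked block, Rps12-ps20 to -ps23 (chrX:123284984-123957688), is 99.5% to 99.8% identical within itself but took few counts. Its summed level was 4.32, 2.54 and 2.31 CPM in Asrij high cells and 0.333, 1.59 and 2.78 CPM in Asrij low cells, and none of its 4 members was called. Their log2 fold changes, from 0.48 to 2.05 on few counts, spanned those of the first block. In the stretch shown for the first block, positions 96 to 195 of the Rps12 transcript counted from its 5' end, Rps12-ps14 carries T103A, C127G, C154A and C179T. Rps12-ps6 adds A185C. Capitals mark the bases that differ from Rps12, both pseudogenes are on the minus strand, and all letters are from GENCODE vM21 on GRCm38.
Rps12: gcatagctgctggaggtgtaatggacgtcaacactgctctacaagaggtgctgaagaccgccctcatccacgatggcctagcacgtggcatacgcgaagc
Rps12-ps14: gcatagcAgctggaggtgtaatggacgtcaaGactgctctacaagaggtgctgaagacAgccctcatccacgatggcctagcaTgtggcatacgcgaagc
Rps12-ps6: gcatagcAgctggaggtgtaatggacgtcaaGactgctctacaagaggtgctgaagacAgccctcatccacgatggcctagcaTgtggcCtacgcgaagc

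The copies of Rps12 with no mismatch had log2 fold changes under 1, and their difference from the X-linked block was not tested. Rps12-ps3 (chr19:59322290-59322784), identical to Rps12 over 494 bases and lying in an intron of Pdzd8 on the opposite strand, had 148, 153 and 119 CPM in Asrij high cells and 82.9, 92.5 and 69.6 CPM in Asrij low cells. It rose by 0.78 ± 0.17 (edgeR adjusted p = 0.00703). Per Rps12 count it had 0.299, 0.362 and 0.309 counts in Asrij high libraries, all below the 0.385, 0.490 and 0.552 of the Asrij low libraries. Rps12-ps4 (chr7:30484660-30485178) rose by 0.74 ± 0.18 (edgeR adjusted p = 0.00944) and likewise had a lower ratio to Rps12 in each Asrij high library, 0.163 to 0.204, than in any Asrij low library, 0.235 to 0.323. Rps12-ps9, with 2 mismatches, rose by 0.83 ± 0.19 (edgeR adjusted p = 0.00754), with overlapping ratios. Pdzd8 rose by 0.65 ± 0.15 (edgeR adjusted p = 0.00782), which is nearer to the value of Rps12-ps3 than that of Rps12 is.

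Rps2 encodes a protein near the decoding centre of the small subunit, and it was called while its copies were not. It had 2775, 2175 and 2524 CPM in Asrij high cells and 907, 1193 and 739 CPM in Asrij low cells, a rise of 1.40 ± 0.23 (edgeR adjusted p = 0.00169). Its most abundant copy, Rps2-ps10, had 206, 207 and 159 CPM in Asrij high cells and 162, 117 and 60.0 CPM in Asrij low cells, a log2 change of 0.75 ± 0.31 (edgeR adjusted p = 0.0804). Replicate 1 of the Asrij low group lay above replicate 3 of the Asrij high group. The 9 tested copies of Rps2 had log2 fold changes from -0.41 for Rps2-ps11 to 0.76 for Rps2-ps9, with Rps2-ps6, -ps8 and -ps13 at 0.71, 0.61 and 0.50, and none was called. Without Asrij low replicate 1, Rps2-ps10, -ps6 and -ps8 were at 1.14, 1.06 and 1.11 and passed the threshold (edgeR adjusted p = 0.0288, 0.0479 and 0.0496), while without Asrij low replicate 3 Rps2-ps10 was at 0.42. Whether the copies differ from Rps2 in fold change was not tested. As a share of the Rps2 counts, the 12 copies summed to 0.191, 0.258 and 0.158 in Asrij high and 0.507, 0.275 and 0.217 in Asrij low libraries, which overlap, with replicate 1 of the Asrij low group standing highest.

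Rps18, whose product sits in the head of the small subunit, and its copies Rps18-ps3, -ps5 and -ps6 differed between libraries by replicate number. At each replicate number, all of them also had a higher CPM in the Asrij high library than in the Asrij low one. Rps18-ps6 (chr13:97760087-97760609) had 328, 415 and 12464 counts in Asrij high replicates 1, 2 and 3 and 231, 136 and 1891 counts in Asrij low replicates 1, 2 and 3. Rps18-ps5 (chr13:28257615-28258138) had 876, 970 and 11856 counts in Asrij high and 313, 251 and 1687 counts in Asrij low cells. Rps18-ps3 (chr8:107262746-107263269) had 365, 359 and 6879 counts in Asrij high and 234, 124 and 1145 counts in Asrij low cells. In each of these copies replicate 3 of both groups stood far above the other libraries. Rps18-ps4 repeated the counts of Rps18-ps6 almost exactly, since its RefSeq span (chr13:97751112-97760963) contains that pseudogene.

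The parent moved the opposite way. Rps18 had 921, 695 and 448 CPM in Asrij high cells and 387, 527 and 193 CPM in Asrij low cells, lowest in replicate 3 of each group. Together Rps18-ps3, -ps5 and -ps6 had 3.13%, 3.94% and 106% of the Rps18 counts in Asrij high libraries and 3.72%, 3.36% and 94.6% in Asrij low libraries. Added to Rps18, the 3 copies gave 950, 723 and 921 CPM in Asrij high cells and 402, 544 and 375 CPM in Asrij low cells, so that replicate 3 no longer stood apart and the groups did not overlap. Rps18 alone had a log2 fold change of 0.90 ± 0.37 and missed the threshold (edgeR adjusted p = 0.0811). With the counts of all its pseudogenes added it rose by 1.003 (edgeR adjusted p = 0.00514), in a sum that counts the locus shared by Rps18-ps4 and Rps18-ps6 under each name. The log2 fold changes of the copies turned with the library left out, and Rps18-ps6 ranged from -2.21 without Asrij high replicate 3 to 3.90 without Asrij low replicate 3.

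One base is shared by the 3 copies that stood out. Positions are counted from the 5' end of the Rps18 transcript, which runs on the minus strand of chromosome 17. Rps18-ps3, -ps5 and -ps6 have 3, 4 and 5 mismatches to it, and A394C, in exon 4 at chr17 position 33952267 of GRCm38, is the substitution that all 3 carry. Rps18-ps2, which is 85.1% identical to the parent and had 6 counts in all, also carries it. Rps18-ps1, with 8 mismatches, has A394T instead and also C409A in the window shown, and it did not share the pattern, with 213, 204 and 130 counts in Asrij high and 138, 70 and 0 counts in Asrij low cells. The 60 bases around the position, GENCODE vM21, have capitals where a copy differs from Rps18.
Rps18: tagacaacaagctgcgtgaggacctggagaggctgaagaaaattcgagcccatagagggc
Rps18-ps3: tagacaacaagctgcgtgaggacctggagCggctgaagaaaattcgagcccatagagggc
Rps18-ps5: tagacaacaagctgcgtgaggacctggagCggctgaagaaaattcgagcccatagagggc
Rps18-ps6: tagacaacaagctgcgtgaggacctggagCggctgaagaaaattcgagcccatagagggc
Rps18-ps1: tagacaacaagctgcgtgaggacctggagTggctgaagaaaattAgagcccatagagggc

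Few other genes had this pattern. Of the 21445 tested genes, 18 were more than 4 times higher in replicate 3 than in either other replicate, in both groups, with at least 1 CPM in Asrij high replicate 3. Of the ribosomal protein pseudogenes, only Rps18-ps3, -ps4, -ps5 and -ps6 were among them, and -ps4 and -ps6 share a locus. No tested ribosomal protein pseudogene had such a pattern in replicate 1 or in replicate 2. Of the 14 other genes, 6 lie on chromosome 17, and all of these but Capn11 lie between 33 and 37 Mb. That stretch of 201 tested genes also holds Rps18, and its bounds were not set beforehand. Among the 5 genes in it is Gm11127, with 42, 119 and 2503 counts in Asrij high and 231, 62 and 1349 counts in Asrij low libraries. Another of the 5, Gm20950, lies inside Gm11127 with nearly the same counts, so these are not separate loci. What sets replicate 3 apart was not tested.

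**Figure D5:**
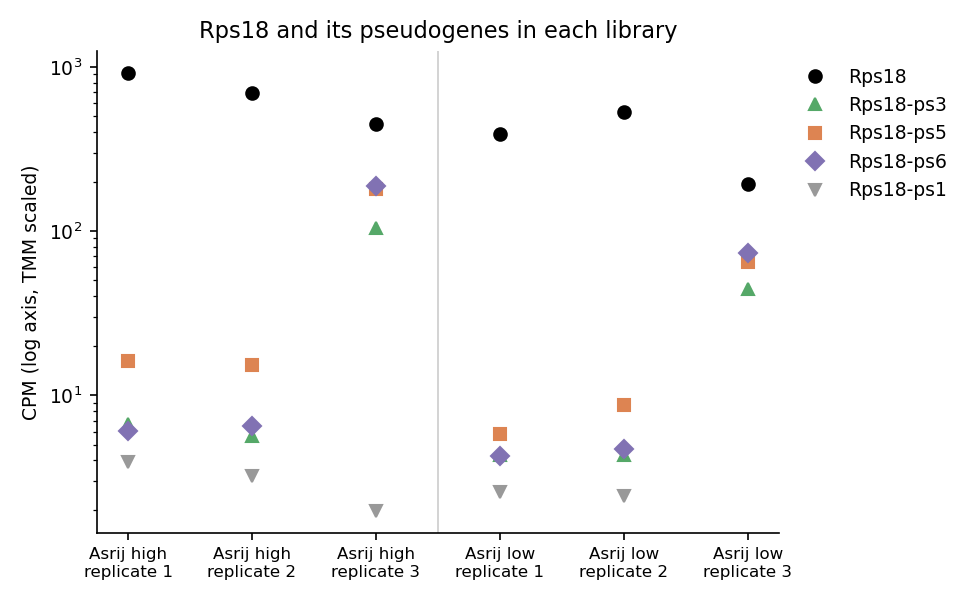
CPM (y axis, log scale) of Rps18 and 4 of its pseudogenes in each of the 6 libraries, Asrij high on the left and Asrij low on the right. Rps18-ps3, -ps5 and -ps6 stand at 44.2 to 189 CPM in replicate 3 of both groups and at 4.28 to 16.1 CPM in the other libraries, whereas Rps18 is lowest in replicate 3; Rps18-ps1 is not drawn in Asrij low replicate 3, where its count is 0.

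Some pseudogenes lie inside other genes. Of the 321 pseudogenes, 99 lie wholly inside another RefSeq gene. In 55 pairs the pseudogene, the host and the parent could all be tested. In 4 of them the pseudogene lies in an exon of the host or has nearly the host's counts in every library (Rpl13-ps1, Rplp2-ps1, Rps23-ps1 and Rps23-ps2), so these were left out after their values were seen. In the other 51 the pseudogene's log2 fold change was nearer to that of the parent in 36 and nearer to that of the host in 15. Among the 12 with under 25% of windows in the parent, 6 were nearer the parent and 6 nearer the host. Rps26-ps1, inside the ubiquitin ligase gene Wwp2 on the opposite strand and with 59.8% of its windows in Rps26, was nearer to its host. It had 7.24, 8.58 and 5.11 CPM in Asrij high cells and 8.68, 6.37 and 9.73 CPM in Asrij low cells, a log2 fold change of -0.24 ± 0.32 (edgeR adjusted p = 0.581). Wwp2 had -0.38 (adjusted p = 0.0583) and Rps26, its parent, rose by 0.94 (adjusted p = 0.0112).

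Adding the counts of each family to its parent changed few calls in the parents. The number that rose was 38 of 64 either way, and 36 parents were called both times. Rps18 and Rpl30 (log2 0.70, edgeR adjusted p = 0.0376) passed only with their pseudogenes added. Rpl21 (0.69, adjusted p = 0.0761) and Rps15 (0.55, adjusted p = 0.0537) passed only without them. Functional paralogues, which are expressed gene copies and not pseudogenes, also rose. Of the 6 of 8 listed that could be tested, Rps27l, Rpl36al, Rpl22l1 and Rpl7l1 were higher, and 0 were lower. Those higher had log2 fold changes of 2.53, 1.58, 1.30 and 1.02, and 21.7% of all tested genes rose. Rps27l, a p53 target, had 39.6 ± 12.9 CPM in Asrij high cells, against 6.89 ± 2.55 CPM in Asrij low cells (SD, n = 3 each, edgeR adjusted p = 0.000955). Rpl39l and Rps4l, at -1.67 and -0.06, were not called.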

How the data were processed

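The unit of the deposited table is the raw count, a whole number of reads for each gene symbol in 3 Asrij high and 3 Asrij low libraries. HISAT2, SAMtools, Subread and FastQC are named beside mm10 (GRCm38) in the submitters' processing notes. Which annotation and strand setting were used, and whether reads mapped to several places were counted, is not given in the sources used here. Per the labels, ribosomal RNA was depleted and a directional kit used, although the molecule is given as polyA RNA. Of the counts from 1 to 19, 74.0% were even, and 71.9% among the pseudogenes.

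Counts were tested with the quasi-likelihood test of edgeR 4.0.16 (R 4.3.3), after filterByExpr (minimum count 10, minimum total 15), with TMM factors, robust dispersions and a single group term. P-values were adjusted by Benjamini-Hochberg over all 21445 genes. Single sums were compared by exact two-sided permutation of the 6 libraries. DESeq2 1.42.0, limma-voom 3.58.1, other scalings, other filters, a replicate block and leaving out each library were alternatives. Floors of 3 counts cover counting error only and take counts as single events, although most low counts were even.

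Coordinates, biotypes and spans are from RefSeq GRCm38.p6, to which all 321 symbols matched. Transcript sequences of GENCODE vM21 were aligned locally with Biopython 1.88 (match 2, mismatch -3, gap -5 and -2), and the share of 50-base windows found in a parent transcript was counted. Levels per kb used the length of the shortest principal transcript of the parent. Within groups, no pair of libraries was a duplicate (chi-square per degree of freedom 82.5 to 183).

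Named were the 10 pseudogenes with the highest mean CPM, up to 5 called ones that rose most and up to 5 that fell most (none fell), every one above its parent in counts, every one called opposite to a called parent (none was), and their parents and hosts. The others were added after their values were seen. The members and lists were chosen with earlier results of these data known.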

Additional observations from a re-analysis of the deposited data

How the results depend on the processing

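The number of pseudogenes that rose, 54 (27.6%), was 32 (16.3%) with library totals only. It was 31 (15.9%) to 76 (37.6%) when each library was left out in turn. The 31 came without Asrij high replicate 1, where 3135 of all 22928 tested genes rose. The 76 came without Asrij low replicate 2, where 5183 of 22866 genes rose. With upper quartile factors 38 pseudogenes (19.4%) rose, beside 3447 of 21445 genes. Library totals and upper quartile factors each moved the median of all genes by -0.27, and library totals gave 3270 genes higher and 4856 lower, against 4655 and 3797. The median log2 fold change of the pseudogenes was then 0.43 and 0.44, which is 0.72 and 0.73 above that of all genes, against 0.73 with TMM factors. It lay between 0.56 and 0.91 with each library left out. The count of pseudogenes called lower was 0 to 1 with each library left out, the 1 being Rpl30-ps2 without Asrij low replicate 2, with 2, 6 and 4 counts in Asrij high and 15, 0 and 51 counts in Asrij low libraries.

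Leaving out replicate 3 of both groups and splitting by windows were chosen after seeing the data. Without replicate 3 of both groups 20 pseudogenes (10.2%) rose, beside 2342 of all 22078 tested genes. In the fit of all 6 libraries, 3 of the 51 with under 25% of windows in the parent rose, beside 21.7% of all tested genes. The median of the 51 was 0.47. The log2 difference of the summed ratio to the parent, -0.02, was 0.0070 without Asrij high replicate 2 and 0.031 without Asrij low replicate 3 and lay between -0.057 and 0.031 over all alternatives, its sign being within the spread of the libraries. Rps26-ps1 was at 0.024 without replicate 3 of both groups. Rpl17-ps10 was at -0.016 with library totals, -0.00071 with upper quartile factors and -0.00043 without Asrij low replicate 3. Without Asrij high replicate 3, Rps18-ps3, -ps4, -ps5 and -ps6 were at -1.59, -2.21, -0.84 and -2.21, and their highest values, without Asrij low replicate 3, were 3.17, 3.84, 3.29 and 3.90. The cause was not tested beyond the counts given for these libraries.

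The replicate numbers are shared between the groups. Same-numbered libraries correlated at 0.0126, 0.0460 and 0.225 in their deviations from the group means, and differently numbered ones at -0.158 to 0.0997. The value of replicate 3 was the highest of all. The numbers were not taken to pair the libraries in the main fit, and whether replicate 3 is paired was not tested. With the replicate block 64 pseudogenes (32.7%) rose and 0 fell, where 4475 and 3613 of all 21445 tested genes did. Of the 64, 48 were shared with the fit without it. Rps18-ps3, -ps4, -ps5 and -ps6 were called, at 0.76, 0.75, 1.25 and 0.79. Also called were Rps2-ps6, -ps8 and -ps10, at 0.82, 0.75 and 0.86, and Rpl17-ps8 and -ps9, at 0.58 and 0.61. Low counts limit the rest: 125 of the 321 pseudogenes could not be tested.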
